A study of Mus musculus with 10 samples.

Results

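The genes of oxidative phosphorylation (OXPHOS), nuclear-encoded and mitochondrially encoded, were followed in bulk liver RNA-seq of 5 WT and 5 Thrb hep-/- mice, with 1 library per mouse. Members were found by symbol (Nduf, Sdh, Uqcr, Cyc1, Cox4 to Cox8, Atp5 and the mitochondrial mt-Nd, mt-Co, mt-Atp and mt-Cytb genes), without use of any expression value, and they were 117 of the 55401 gene identifiers counted. Of these, 101 were protein coding, with 13 in the mitochondrial and 88 in the nuclear genome, and 16 were annotated as pseudogenes or non-coding transcripts. Livers came from mice labelled C57Bl6/J in the sample titles and C56Bl6/J in the strain field. WT mice carried both Thrb alleles as far as the labels say, and whether they carried loxP sites or shared litters with the other mice is not given in the sources used here. Thrb hep-/- mice, labelled as liver-specific THRB knockouts, came from a cross of Thrb-loxP/loxP with Afp-Cre animals. Afp-Cre is driven by alpha-fetoprotein sequences that are active in the fetal liver lineage, so bulk liver still holds other cell types in which Thrb is intact. All mice had standard chow and tap water at will under a daily light and dark cycle and received no treatment. The study's methods describe bought young adult male WT mice for an inflammation experiment, and whether this covers the 10 mice here is not stated, so that their sex, age and time of collection are not known from the sources used here.

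Oxidative phosphorylation takes electrons from NADH at complex I and from succinate at complex II, passes them through complex III and cytochrome c to oxygen at complex IV, and uses the proton gradient built on the way to make ATP at complex V. Complex II is wholly nuclear-encoded, whereas the other complexes combine nuclear subunits with a core made from mitochondrial DNA, so that both genomes have to be expressed. The liver relies on this pathway for ATP, for the disposal of electrons from fatty acid oxidation and for gluconeogenesis. Thyroid hormone, which acts in hepatocytes mainly through the receptor encoded by Thrb, is a known regulator of mitochondrial content and respiration. The comparison of both genotypes therefore asks how the mRNA of the respiratory chain stood when this receptor was deleted in liver cells.

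Total counts were between 26477195 and 28590704 per library, and 12234 genes with at least 1 CPM (counts scaled to the library's total) in at least 5 libraries were tested by quasi-likelihood in edgeR, where adjusted p-values are Benjamini-Hochberg over all of these genes and the threshold is 0.15. Values by mouse are given in the order of replicates 1 to 5. Of the members, 96 passed that filter, which were 80 nuclear-encoded protein-coding genes, 12 of the 13 mitochondrially encoded genes and 4 others. Thrb itself gave 33.3 ± 0.643 for WT and 26.7 ± 1.93 for Thrb hep-/- (SD, n = 5 each) in CPM on TMM-scaled library sizes (normalized CPM), with no overlap of the groups; these counts cover the whole gene and not the deleted part alone. Hepatocyte markers dominated every library, with 5 genes summing to between 107078 and 150652 normalized CPM in WT and between 115986 and 128675 in Thrb hep-/- livers, and 3 of 5 fitted below 0 (median log2 fold change -0.15, none past the threshold). Muscle markers were near 0, with a sum of at most 0.0781. All 5 Kupffer cell markers had fitted values below 0, with a median log2 fold change of -0.75, none past the threshold, and a sum between 77.4 and 316 in WT and between 89.1 and 194 in Thrb hep-/- livers. Of the erythroid markers, 4 of 5 were fitted below 0 (median -0.68, none past the threshold). All 5 stellate cell markers were fitted above 0 (median 0.23) and all 3 tested cholangiocyte markers below 0 (median -0.42), none past the threshold. Of the endothelial markers, 3 of 4 were fitted above 0 (median 0.18), and the 1 tested lymphocyte marker was fitted at -0.55, likewise not past it. The part of these cell types in the results was not tested.

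Of the Thrb hep-/- libraries, 3 carried adipocyte transcripts. The sum of Adipoq, Plin1, Cidea and Ucp1 was 18.0, 0.0375, 0.0686, 17.7 and 44.9 normalized CPM in the Thrb hep-/- mice and at most 0.210 in WT mice. Ucp1, the proton channel that defines brown adipocytes, had 197, 64 and 662 counts in Thrb hep-/- mice 1, 4 and 5 and 0 counts in the other 7 libraries. Brown adipocytes are rich in mitochondria. The main results are therefore given with all 10 libraries and without these 3.

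The members were fitted higher in Thrb hep-/- livers almost throughout, by small amounts. Of the 96 tested members, 91 had a fitted log2 fold change above 0, against 50.1% of all genes tested. Log2 fold changes had a median of 0.15 over the members and 0.00054 over all genes, and the middle of the members lay between 0.088 and 0.19 (quartiles). This corresponds to levels 10.95% above WT at the median. Fitted values of single members were close in size to their SE, which had a median of 0.11.

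Past the threshold, 1 of 96 members was higher (1.51% of all genes) and 0 were lower (2.57% of all genes) by edgeR. At an unadjusted p under 0.05, 8 of 96 members were higher (6.15% of all genes) and 0 were lower (907 of all 12234 genes) by edgeR. DESeq2 called 5 members, all higher, and limma-voom called 1. Over all genes and both directions these tools called 885 and 531. In 0 of 96 members was each Thrb hep-/- mouse above each WT mouse, against 1.38% of all genes. At an adjusted p under 0.05, edgeR and limma-voom called 0 members and DESeq2 called 1, Cox6a1. Of all 12234 genes, edgeR called 165 at that level. The counts of DESeq2 and limma-voom over all genes at that level are not given here. The 1 call of DESeq2 therefore cannot be set against its share of all genes. Nearly all members were thus fitted in the same direction, with little that separated the genotypes gene by gene. Members share the same 10 mice and are not independent. Within a genotype the nuclear-encoded members varied together (median pairwise correlation 0.695). In each mouse their median log2 deviation from the WT mean was taken. It averaged 0.0048 ± 0.11 in WT and 0.14 ± 0.16 in Thrb hep-/- mice (SD, n = 5 each), and this difference was not tested. In bulk tissue, a different number of cells of a type and a different amount of RNA per cell cannot be told apart.

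Without the 3 libraries with adipocyte markers, 95 of 96 members were fitted higher, the median of the nuclear-encoded members was 0.22 in place of 0.14 and that of the mitochondrially encoded members 0.24 in place of 0.16. The 2 Thrb hep-/- mice left were mouse 2, with a nuclear median of 0.39 above the WT mean (log2), and mouse 3, with 0.048, so the higher median rests on mouse 2. In this smaller comparison 0 members were past the threshold by edgeR. Without Thrb hep-/- mouse 2, the median of the nuclear-encoded members was 0.088, with 66 of 80 fitted higher.

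**Figure D1:**
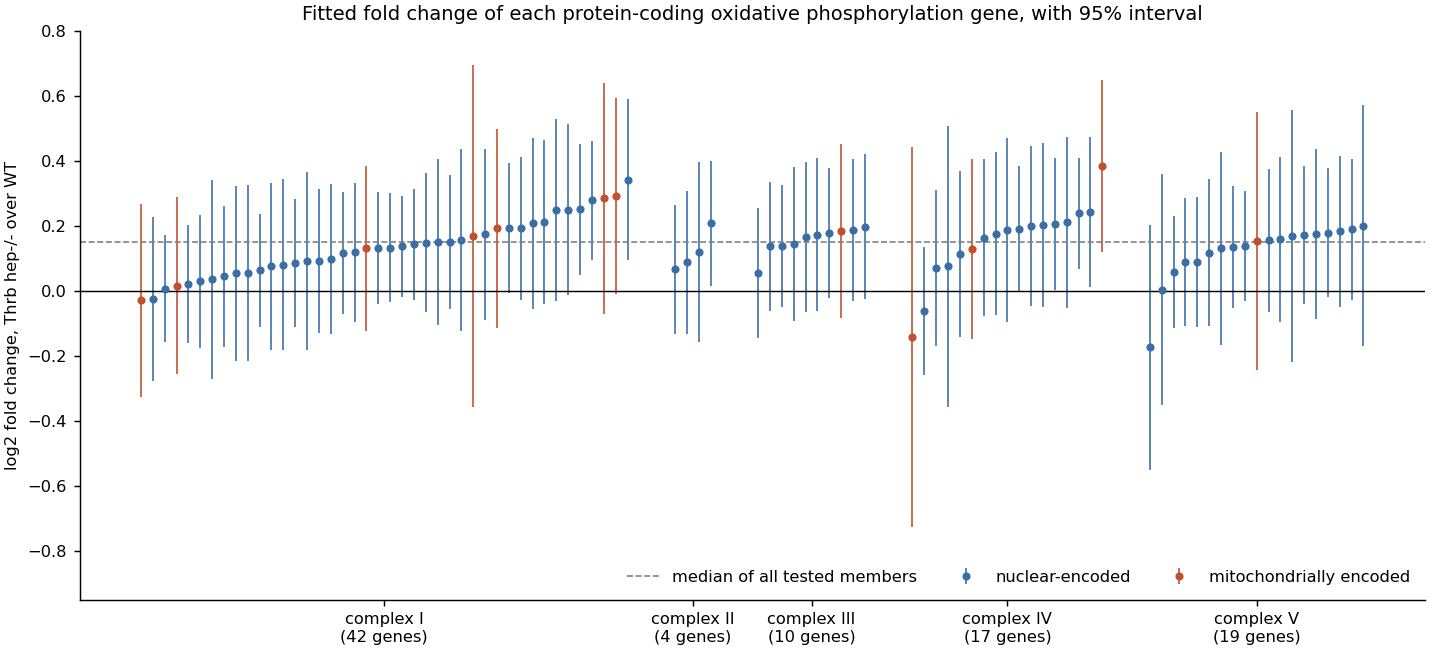
Fitted log2 fold change (Thrb hep-/- over WT, y axis) of each tested protein-coding member, ordered within its complex, with 95% intervals from edgeR; blue points are nuclear-encoded and red points mitochondrially encoded genes. Nearly all points sit above 0 around the median of 0.15, and most intervals reach across 0.

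Complex I, the NADH dehydrogenase through which most electrons enter the chain, is the largest group, and 34 of 35 nuclear-encoded subunits were fitted higher, with a median log2 fold change of 0.13. Ndufs7, which carries the last iron-sulfur cluster before ubiquinone, was the only member past the threshold. It had 44.6, 51.4, 59.0, 56.3 and 46.5 normalized CPM in WT mice 1 to 5, against 58.8, 59.8, 65.5, 63.9 and 65.0 in the Thrb hep-/- mice. All but 1 WT mouse lay below the lowest Thrb hep-/- mouse, and the groups overlapped by WT mouse 3. The means were 51.6 ± 6.14 for WT and 62.6 ± 3.07 for Thrb hep-/- (SD, n = 5 each), with an estimated log2 fold change of 0.28 (SE 0.085, 95% interval 0.096 to 0.46, adjusted p = 0.149) by edgeR. The call was lost when any of WT mice 1, 2 and 5 or Thrb hep-/- mice 3, 4 and 5 was left out (adjusted p between 0.24 and 0.32 with edgeR) and without the libraries with adipocyte markers (log2 fold change 0.29, adjusted p = 0.40, with values from 0.057 to 0.40 across the alternatives).

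Ndufb9, an accessory subunit of the membrane arm, had the highest fitted value of the nuclear-encoded members. Normalized CPM of Ndufb9 were 18.3, 18.2, 21.5, 22.2 and 19.2 in WT mice 1 to 5, against 22.0, 32.5, 22.2, 23.3 and 26.1 in the Thrb hep-/- mice, with mouse 2 of the latter far above the rest and WT mouse 4 within their range. The comparison came out with an estimated log2 fold change of 0.34 (SE 0.11, 95% interval 0.096 to 0.59, adjusted p = 0.19). Of its exonic bases, 19.5% overlap Gm49356, and reads there could be assigned to neither gene, which makes its level uncertain. Leaving out Thrb hep-/- mouse 1 brought it past the threshold (adjusted p = 0.13 with edgeR). Ndufa5, an accessory subunit of the matrix arm, lay between 30.5 and 42.1 in WT and between 40.3 and 44.5 in Thrb hep-/- mice, with a log2 fold change of 0.25 (SE 0.092, adjusted p = 0.25).

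Among the catalytic core subunits, Ndufv1, which holds the flavin that takes the electrons from NADH, gave a log2 fold change of 0.19 (SE 0.092, adjusted p = 0.38) and Ndufs1 of 0.14 (SE 0.071, adjusted p = 0.43). Lower fitted values were those of Ndufs8 and Ndufv2, with 0.030 and 0.055. Ndufc2 was the 1 nuclear subunit of complex I fitted lower, with a log2 fold change of -0.024 (SE 0.12, adjusted p = 0.96). Ndufb2 had the lowest counted level of the complex per length, 0.498 normalized CPM per kb of exon, with values between 2.27 and 2.97 CPM in WT and between 2.40 and 3.23 in Thrb hep-/- mice and a log2 fold change of 0.037 (SE 0.14, adjusted p = 0.95); its direction turned when WT mouse 4 or Thrb hep-/- mouse 1 or 2 was left out (-0.025, -0.014 and -0.0031).

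Complex II oxidizes succinate and so links the citric acid cycle to the chain. All 4 subunits were fitted higher, with a median of 0.10. Sdha, the flavoprotein that holds the active site, had 414, 426, 474, 501 and 432 normalized CPM in WT mice 1 to 5, against 552, 479, 504, 498 and 562 in the Thrb hep-/- mice. WT mouse 4 lay within the range of the Thrb hep-/- mice and the other WT mice below it. The means were 449 ± 36.8 for WT and 519 ± 36.2 for Thrb hep-/- (SD, n = 5 each), with an estimated log2 fold change of 0.21 (SE 0.088, 95% interval 0.017 to 0.40, adjusted p = 0.33). Sdhd, a membrane anchor, had the highest level of the complex per length (155 normalized CPM per kb) and gave a log2 fold change of 0.067 (SE 0.091, adjusted p = 0.82). Sdhc, the other anchor, had the lowest (49.0) and gave a log2 fold change of 0.088 (SE 0.10, adjusted p = 0.77).

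Complex III passes electrons from ubiquinol to cytochrome c. All 9 nuclear-encoded subunits were fitted higher, between 0.055 for Uqcrc1 and 0.20 for Uqcr10, and none passed the threshold. Uqcrfs1, the Rieske iron-sulfur protein, had values between 185 and 211 in WT and 175, 245, 224, 222 and 224 in the Thrb hep-/- mice. Mouse 1 of the latter lay below every WT mouse and the other Thrb hep-/- mice above them, with a log2 fold change of 0.18 (SE 0.093, adjusted p = 0.43). Without that mouse Uqcrfs1 was among the members past the threshold. Cyc1, the heme protein that hands electrons to cytochrome c, gave a log2 fold change of 0.14 (SE 0.092, adjusted p = 0.56). Uqcrc1, a core protein with the lowest level of the complex per length (48.5 normalized CPM per kb), gave a log2 fold change of 0.055 (SE 0.092, adjusted p = 0.86).

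Complex IV, cytochrome c oxidase, had the highest median of the nuclear-encoded groups, 0.19, with 13 of 14 members fitted higher. Differences between complexes were not tested. The 14 include Gm11273, annotated as protein coding but matched through the RefSeq symbol Cox5b-ps. It shares 61.9% of its 50-base windows with Cox5b, so counting it as a subunit gene is uncertain. Cox6a1, the liver form of subunit 6A, had 199, 212, 202, 229 and 209.9 normalized CPM in WT mice 1 to 5, against 223, 261, 245, 242 and 272 in the Thrb hep-/- mice. All Thrb hep-/- mice but mouse 1 lay above the highest WT mouse. The means were 210.5 ± 11.7 for WT and 248.6 ± 19.1 for Thrb hep-/- (SD, n = 5 each), with an estimated log2 fold change of 0.24 (SE 0.079, 95% interval 0.069 to 0.41, adjusted p = 0.19). It passed the threshold without WT mouse 4 (adjusted p = 0.145) or Thrb hep-/- mouse 1 (adjusted p = 0.11) with edgeR, and with DESeq2 (adjusted p = 0.027).

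Ndufa4, first assigned to complex I and now known as a subunit of complex IV, gave a log2 fold change of 0.24 (SE 0.11, adjusted p = 0.34), with values between 209 and 268 in WT and between 227 and 323 in Thrb hep-/- mice. Cox7a2 gave a log2 fold change of 0.21 (SE 0.094, adjusted p = 0.36), Cox4i1 0.21 (SE 0.12, adjusted p = 0.48), Cox6b1 0.20 (SE 0.11, adjusted p = 0.48) and Cox8a 0.19 (SE 0.089, adjusted p = 0.37). Cox7a2l was the 1 nuclear member of the group fitted lower. It lay between 84.1 and 96.8 in WT and had 72.4, 104, 82.9, 87.5 and 89.9 in the Thrb hep-/- mice, with a log2 fold change of -0.061 (SE 0.091, adjusted p = 0.84); its log2 fold change was 0.041 without the libraries with adipocyte markers.

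**Figure D2:**
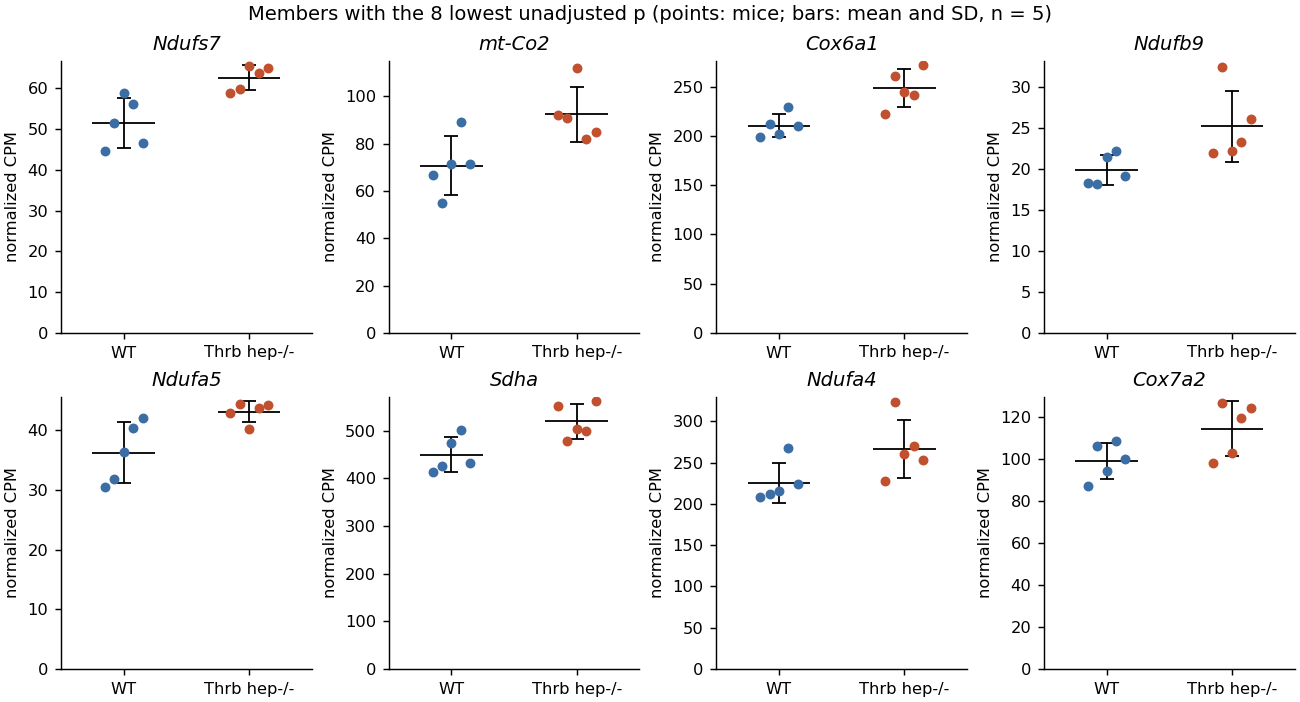
Normalized CPM (y axis, from 0) of the 8 members with the lowest unadjusted p in each WT mouse (blue) and each Thrb hep-/- mouse (red), with mean and SD (n = 5). The means are higher in Thrb hep-/- mice in all 8 genes, and points of both genotypes overlap in each of them.

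Complex V, the ATP synthase, had 17 of 18 nuclear-encoded members fitted higher, with a median of 0.15 and none past the threshold. Atp5b, the catalytic beta subunit, had 1052, 1049, 1135, 1247 and 1045 normalized CPM in WT mice 1 to 5, against 1147, 1330.1, 1232, 1264 and 1287 in the Thrb hep-/- mice. WT mouse 4 was within the range of the Thrb hep-/- mice, and the comparison came out with an estimated log2 fold change of 0.18 (SE 0.091, 95% interval -0.019 to 0.38, adjusted p = 0.42). Atp5a1, the alpha subunit, had the highest level of any nuclear-encoded ATP synthase gene per length (334 normalized CPM per kb), and gave a log2 fold change of 0.089 (SE 0.092, adjusted p = 0.74). Subunit c, which forms the rotating ring, is made from 3 genes that encode the same mature protein. Of these Atp5g3 stood at 179, Atp5g2 at 32.7 and Atp5g1 at 27.0 normalized CPM per kb, with log2 fold changes of 0.16, 0.058 and 0.089. Pseudogene copies share 34.7% of the 100-base windows of Atp5g2, so its level is uncertain.

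Atp5s, a coupling factor that is no subunit of the enzyme, had the lowest fitted value of all members. It had 4.31, 4.75, 4.58, 5.04 and 3.93 normalized CPM in WT mice 1 to 5, against 3.75, 6.04, 3.43, 3.14 and 3.71 in the Thrb hep-/- mice. All Thrb hep-/- mice but mouse 2 were below the WT mice, and mouse 2 was above them. The fit gave a log2 fold change of -0.17 (SE 0.17, adjusted p = 0.73), and 0.068 without the libraries with adipocyte markers. Atp5o, which links the catalytic head to the stator stalk, was counted at only 7.50 ± 0.898 (SD, n = 5) in WT livers, and 47.9% of its exonic bases overlap other annotated genes, so its level and its log2 fold change of 0.0047 are uncertain. Among the members that are not protein coding, all 4 tested were fitted higher; the highest, the pseudogene Atp5k-ps2, gave a log2 fold change of 0.35 (SE 0.22, adjusted p = 0.53).

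The mitochondrial genome contributes 7 subunits of complex I, cytochrome b of complex III, 3 core subunits of complex IV and 2 subunits of complex V. These 13 genes took 4.47% ± 0.496 (SD, n = 5) of all counts in WT and 5.04% ± 0.425 (SD, n = 5) in Thrb hep-/- livers. By mouse the share was 4.45, 3.65, 4.73, 4.94 and 4.57% in WT mice 1 to 5, against 5.21, 4.58, 5.58, 4.63 and 5.21% in the Thrb hep-/- mice, so the groups overlapped. The difference of 0.575 percentage points was 0.369 without WT mouse 2, the lowest, and 0.612 without the libraries with adipocyte markers. Nuclear-encoded members took 1.002% ± 0.0759 and 1.13% ± 0.0830 (SD, n = 5 each) of all counts.

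A stretch of the mitochondrial genome, from within mt-Co1 to within mt-Nd4, has a near-identical copy in chromosome 1. It is annotated there as a row of pseudogenes. The authors did not count reads that mapped equally well to more than 1 place. The mitochondrial gene mt-Co2, which encodes the copper-bearing subunit of complex IV, shows the case and is printed with its copy Gm28661, by the first 60 bases of each (GRCm38). All letters are lower case since the stretches are identical, as are all 681 aligned bases of the pair.
mt-Co2 (chrM:7013-7072, plus strand): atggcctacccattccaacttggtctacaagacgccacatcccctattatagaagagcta
Gm28661 (chr1:24615506-24615565, minus strand): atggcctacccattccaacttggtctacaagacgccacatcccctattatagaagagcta

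Of the 100-base windows of each gene, between 97.6% and 99.9% were found in such a copy for mt-Nd3, mt-Nd4l, mt-Co2, mt-Co3 and mt-Atp6. The share found in any other annotated gene was 60.8% for mt-Nd4, 30.8% for mt-Co1 and 3.19% for mt-Nd2, and 0 for mt-Nd1, mt-Nd5, mt-Nd6 and mt-Cytb. For mt-Nd2 the match was Gm13339, and mt-Co1 matched Gm13340 besides its chromosome 1 copy. Per length, the 5 genes with nearly complete copies were counted between 8.93 and 119 normalized CPM per kb, whereas mt-Co1, mt-Cytb, mt-Nd1, mt-Nd2, mt-Nd4, mt-Nd5 and mt-Nd6 stood between 1833 and 13052. The 3 core subunits of complex IV thus stood far apart in counted level; the part of the shared sequence in this was not tested, and the levels of those 5 genes are uncertain. The smallest, mt-Atp8, was at 0.385 to 1.23 CPM in WT and 0.318 to 1.84 in Thrb hep-/- mice, did not pass the filter and was not tested. No annotated copy of mt-Atp8 was found. Only annotated transcripts were searched, so an unannotated copy between those of mt-Co2 and mt-Atp6 in chromosome 1 would be missed. Of mt-Atp8, 21.1% overlaps mt-Atp6.

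**Figure D3:**
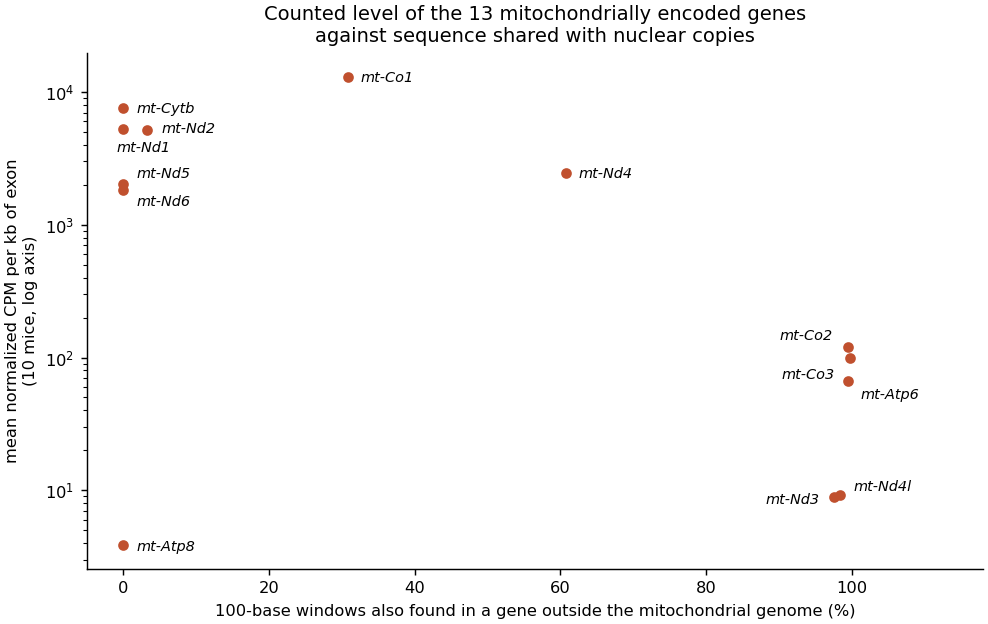
Mean normalized CPM per kb of exon over the 10 mice (log axis) of the 13 mitochondrially encoded genes against the percent of their 100-base windows that also occur in a gene outside the mitochondrial genome. The 5 genes with over 90% of windows shared lie at or below 119. The lowest is mt-Atp8, with 0% found in annotated transcripts, the only ones searched.

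Among the genes with little shared sequence, mt-Cytb, the cytochrome b of complex III and its most abundant member per length, had 7907, 6808, 8286, 9323 and 8613 normalized CPM in WT mice 1 to 5, against 9450.1, 9331, 10248, 7654 and 9849 in the Thrb hep-/- mice. Within their groups Thrb hep-/- mouse 4 was low and WT mouse 4 high, and the comparison came out with an estimated log2 fold change of 0.18 (SE 0.12, 95% interval -0.082 to 0.45, adjusted p = 0.56). For mt-Nd1 the fit gave a log2 fold change of 0.13 (SE 0.12, adjusted p = 0.68) and for mt-Nd2 0.19 (SE 0.14, adjusted p = 0.60). The distal complex I genes were nearest to 0, mt-Nd5 with a log2 fold change of -0.028 (SE 0.14, adjusted p = 0.96) and mt-Nd6 with a log2 fold change of 0.016 (SE 0.13, adjusted p = 0.97). Of the subunit genes, mt-Nd6 is the only one encoded on the light strand. Reads were counted without strand, so RNA of the opposite strand there would be counted as mt-Nd6, which makes its level uncertain. The direction of mt-Nd5 turned when WT mouse 1 or 4 or Thrb hep-/- mouse 2 or 4 was left out (up to 0.048) and without the libraries with adipocyte markers (0.036), and that of mt-Nd6 turned without WT mouse 2 or Thrb hep-/- mouse 1, 3 or 5 (down to -0.067).

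The catalytic subunit mt-Co1, the most abundant member of all, had 20800.3, 15433, 18079, 21570.0 and 20454 normalized CPM in WT mice 1 to 5, against 22824, 20268, 22117, 18111 and 22005 in the Thrb hep-/- mice, with a log2 fold change of 0.13 (SE 0.13, adjusted p = 0.73). Its share of the counts of the 13 genes was 42.5% ± 1.45 in WT and 42.1% ± 1.40 in Thrb hep-/- livers (SD, n = 5 each). The partly shared mt-Nd4 gave a log2 fold change of 0.29 (SE 0.14, adjusted p = 0.39). Over the 5 tested genes with under 10% of windows shared the median log2 fold change was 0.13, and over all 12 it was 0.16.

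The genes with nearly complete copies differed in direction among themselves. The highest fitted value of all members was that of mt-Co2, with 66.9, 54.8, 71.4, 89.2 and 71.4 normalized CPM in WT mice 1 to 5, against 92.0, 91.1, 112, 82.1 and 84.8 in the Thrb hep-/- mice. WT mouse 4 lay within the Thrb hep-/- range and the other WT mice below it. The comparison came out with an estimated log2 fold change of 0.39 (SE 0.12, 95% interval 0.12 to 0.65, adjusted p = 0.17), past the threshold without WT mouse 4 (adjusted p = 0.063 with edgeR, with values from 0.063 to 0.38 across the alternatives). Its copy Gm28661 had 33.9, 30, 37.3, 43.6 and 36.0 in WT mice, against 50.3, 44.9, 181, 42.5 and 41.9 in the Thrb hep-/- mice, with mouse 3 far above the rest. Past the threshold were the copies Gm10925 of mt-Atp6, with a log2 fold change of 0.47 (SE 0.13, adjusted p = 0.11), and Gm28437 of mt-Co3, with a log2 fold change of 0.37 (SE 0.11, adjusted p = 0.12), by edgeR. These copies are identical to the mitochondrial genes over all 678 and 783 aligned bases. Their levels are therefore uncertain too, and their counts do not show that the copies themselves were transcribed. For mt-Co3 itself the fit gave a log2 fold change of -0.14 (SE 0.26, adjusted p = 0.88), and 0.018 without Thrb hep-/- mouse 1; for mt-Atp6 it gave a log2 fold change of 0.15 (SE 0.18, adjusted p = 0.77), for mt-Nd4l 0.29 (SE 0.16, adjusted p = 0.48) and for mt-Nd3 0.17 (SE 0.24, adjusted p = 0.83), the last turning to -0.079 without Thrb hep-/- mouse 2.

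Nuclear-encoded members also varied between mice of 1 genotype. The median deviation of the 80 nuclear-encoded members from the WT mean was -0.034, -0.086, -0.065, 0.19 and 0.020 (log2) in WT mice 1 to 5, against -0.021, 0.39, 0.048, 0.11 and 0.17 in the Thrb hep-/- mice. The highest was Thrb hep-/- mouse 2, which was the highest of the 10 mice in 64 of the 80 genes (16.7% of all genes). WT mouse 2 was the lowest in 29 of the 80 (8.28% of all genes). Both Thrb hep-/- mouse 1 and WT mouse 4 lay among the other genotype. Over the mitochondrially encoded genes the medians were 0.066, -0.28, 0.017, 0.20 and 0.080 in WT mice 1 to 5, against 0.086, 0.14, 0.32, -0.015 and 0.17 in the Thrb hep-/- mice, so that mouse 2 was not set apart there.

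Members deviated together from mouse to mouse within a genotype. The median pairwise correlation of the nuclear-encoded members, after removal of the genotype means, was 0.695 over the 10 mice; it was 0.705 among the 5 mitochondrially encoded genes with little shared sequence and 0.156 between both kinds. These values describe genes that share their libraries, depth and scaling. The medians of the nuclear-encoded complexes differed little, from 0.10 for complex II through 0.13 for I, 0.15 for V and 0.17 for III to 0.19 for IV. Without Thrb hep-/- mouse 2, medians per complex over both genomes ran from 0.035 for complex II to 0.12 for complex IV, in place of 0.10 and 0.19; without WT mouse 4 that of complex II was 0.17.

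Among the 10 mice, Thrb hep-/- mouse 2 was also the highest and Thrb hep-/- mouse 1 the lowest in ribosomal protein genes, another abundant class of short transcripts. The medians of 89 cytosolic ribosomal protein genes were 0.078, -0.024, -0.13, 0.097 and -0.0039 in WT and -0.16, 0.32, -0.081, 0.026 and 0.00093 in the Thrb hep-/- mice. Between genotypes their median log2 fold change was 0.033, with 61 of 89 fitted higher and 2 past the threshold, both lower, and that of 77 mitochondrial ribosomal protein genes was 0.049, with 56 of 77. Set against the cytosolic ribosomal protein genes of the same mouse, a comparison chosen after the values were seen, the nuclear-encoded members stood at -0.11, -0.061, 0.061, 0.093 and 0.024 in WT mice 1 to 5, against 0.14, 0.067, 0.13, 0.082 and 0.17 in the Thrb hep-/- mice. On that scale mouse 2 was the lowest of the Thrb hep-/- mice, and mice 2 and 4 lay below WT mouse 4 and above the other WT mice, while mice 1, 3 and 5 lay above all of them. Set against the mitochondrial ribosomal protein genes instead, the members stood at -0.043, -0.068, -0.011, 0.10 and 0.018 in WT mice 1 to 5, against 0.11, 0.16, 0.053, 0.046 and 0.079 in the Thrb hep-/- mice, and there mouse 2 was the highest of all. Neither difference was tested.

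Most nuclear-encoded members are short and abundant. When all tested genes were split into 4 groups of like size by exonic length, the shortest (57 to 2595 bases) held 59 of the 80 and had a median log2 fold change of 0.028, and of 4 such groups by abundance the highest held 62 and had 0.039. The nuclear members of the shortest group had a median of 0.15 and those of the next 0.17. With a length offset per library the median of the nuclear-encoded members was 0.13, with 74 of 80 higher. The 63 nuclear-encoded members with under 10% of their windows shared and under 10% of their exons overlapped had a median of 0.14.

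**Figure D4:**
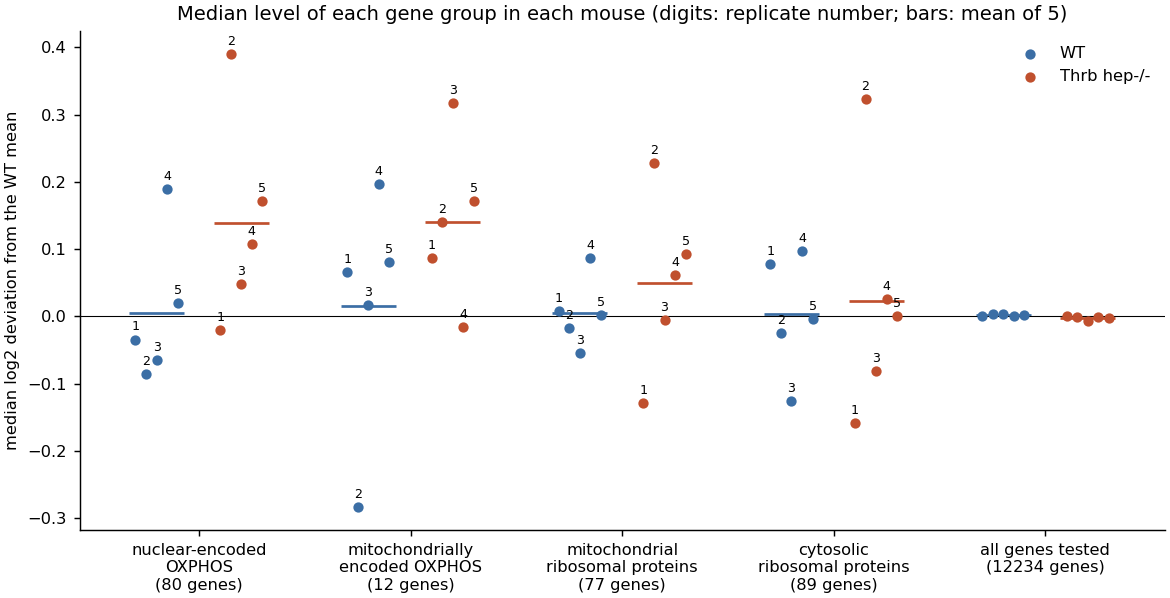
Median log2 deviation from the WT mean (y axis) over the genes of each group in each mouse, WT in blue and Thrb hep-/- in red, with digits for the replicate number and bars for the mean of 5. Mouse 2 of the Thrb hep-/- group lies at 0.39 in nuclear-encoded OXPHOS genes and at 0.32 in cytosolic ribosomal protein genes, while the medians of all genes tested stay near 0.

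Several subunits of complex IV exist as alternative isoforms with known tissue preference, and the livers used the ubiquitous or liver forms. Per length, Cox6a1 was counted at 327 and its heart and muscle partner Cox6a2 at 0.0431 normalized CPM per kb. Cox4i1 stood at 138 and Cox4i2, the lung form, at 0.0631. Cox6b1 stood at 261 and Cox6b2, the testis form, at 0.204. Cox7a2 and Cox7a2l stood at 113 and 60.3 and Cox7a1, the heart and muscle form, at 1.84. Cox8a stood at 313 and Cox8b at 0.992, and Cox8c had 0 counts in all 10 libraries. Ndufa4 stood at 178 and Ndufa4l2, known as a hypoxia-induced gene, at 1.63, with a log2 fold change of 0.076 (SE 0.20, adjusted p = 0.92) for the latter. The heart, lung, testis and muscle forms were not tested, since they did not pass the filter.

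Of the isoforms known from muscle and brown fat, only Cox8b was raised in just the 3 libraries with adipocyte markers. Cox8b had 2, 0, 0, 1 and 0 counts in WT mice 1 to 5, against 14, 0, 0, 16 and 69 counts in the Thrb hep-/- mice. Its counts were thus above 2 in Thrb hep-/- mice 1, 4 and 5 alone, the same 3 libraries in which Ucp1 was counted. A count of 0 allows up to 3 counts, or between 0.105 and 0.113 CPM in these libraries, for counting error only. Cox7a1 had 18, 23, 24, 13 and 22 counts in WT mice 1 to 5, against 23, 19, 33, 53 and 50 in the Thrb hep-/- mice, highest in Thrb hep-/- mice 4 and 5. Mouse 1, with the markers, was within the WT range and below mouse 3, without them. Cox6a2 had at most 3 counts in any library. Skeletal muscle markers did not accompany Cox8b or Cox7a1, with Ckm, Acta1, Tnnt3 and Myh4 under 1 normalized CPM in every library. Over the 80 nuclear-encoded members, the medians of Thrb hep-/- mice 4 and 5 (0.11 and 0.17) lay between those of the mice without these markers, mouse 3 (0.048) and mouse 2 (0.39), and that of mouse 1 (-0.021) lay below both. The part of adipocyte RNA in the members' values was not tested.

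**Figure D5:**
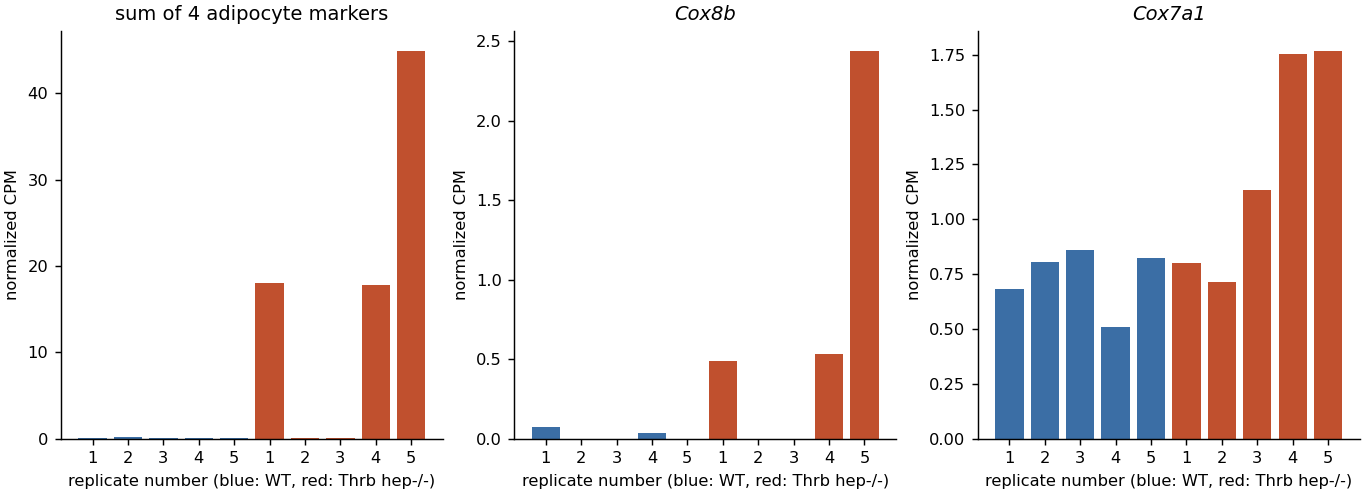
Normalized CPM (y axis, from 0) by mouse of the sum of the adipocyte markers Adipoq, Plin1, Cidea and Ucp1, of Cox8b and of Cox7a1, with WT mice 1 to 5 in blue and Thrb hep-/- mice 1 to 5 in red. Marker sum and Cox8b are raised in Thrb hep-/- mice 1, 4 and 5 and near 0 in the others, and Cox7a1 is highest in Thrb hep-/- mice 4 and 5.

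Genes that assemble, supply and regulate the chain had medians nearer to 0 than the subunits. Of the complex assembly factors, 43 of 46 were tested, 27 were fitted higher (median 0.056), and 1 was past the threshold. This was Cox19, a copper chaperone for complex IV, with 34.9, 31.2, 29.7, 27.4 and 27.7 normalized CPM in WT mice 1 to 5, against 39.5, 35.1, 42.8, 52.9 and 34.8 in the Thrb hep-/- mice. Only Thrb hep-/- mouse 5 fell short of the highest WT mouse, and the comparison came out with an estimated log2 fold change of 0.44 (SE 0.12, 95% interval 0.19 to 0.70, adjusted p = 0.091). The call was lost without any of WT mice 2, 3, 4 and 5 or Thrb hep-/- mice 3 and 4 (adjusted p between 0.16 and 0.22 with edgeR, log2 fold change 0.33 to 0.46) and without the libraries with adipocyte markers (log2 fold change 0.37, adjusted p = 0.29, with values from 0.023 to 0.29 across the alternatives).

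Of the genes that maintain and express mitochondrial DNA, 24 of 27 were tested, 15 were fitted higher (median 0.050) and none passed the threshold by edgeR, with 1 higher and 0 lower at an unadjusted p under 0.05. That gene was Tfam, which packages mitochondrial DNA and starts its transcription, with 37.8, 35.8, 34.1, 39.3 and 33.9 normalized CPM in WT mice 1 to 5, against 37.7, 42.7, 42.6, 39.7 and 38.7 in the Thrb hep-/- mice, with a log2 fold change of 0.16 (SE 0.069, adjusted p = 0.35). Of the regulators of mitochondrial biogenesis, 12 of 14 were tested, 9 were fitted higher (median 0.032), and 1 was past the threshold, Thrb itself, with a log2 fold change of -0.32 (SE 0.067, adjusted p = 0.036) and -0.31 (adjusted p = 0.24) without the libraries with adipocyte markers. Ppargc1a, the coactivator that drives OXPHOS genes, gave a log2 fold change of -0.15 (SE 0.19, adjusted p = 0.81), turning to 0.0061 without Thrb hep-/- mouse 4 and 0.083 without the libraries with adipocyte markers. The transcription factor genes Esrra, Nrf1 and Gabpa gave 0.033, 0.013 and 0.031, each under its SE and turning with single mice.

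Electron carriers and entry points other than complexes I and II had 11 of 21 fitted higher (median 0.030), and 1 passed the threshold. Prodh, which feeds electrons from proline into the chain, fell from 246 ± 86.4 to 116 ± 35.02 normalized CPM (SD, n = 5 each). The highest Thrb hep-/- mouse, mouse 2 with 174.99, lay just above the lowest WT mouse with 174.85. The log2 fold change of Prodh was -1.09 (SE 0.24, adjusted p = 0.063), -1.03 without Thrb hep-/- mouse 3 (adjusted p = 0.16) and -0.85 without the libraries with adipocyte markers (adjusted p = 0.41). Cycs, cytochrome c, the carrier between complexes III and IV, came out with an estimated log2 fold change of 0.25 (SE 0.11, 95% interval 0.0040 to 0.49, adjusted p = 0.36), and passed the threshold without Thrb hep-/- mouse 1 (adjusted p = 0.11 with edgeR).

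Among the nucleotide, phosphate and proton carriers of the inner membrane, 6 of 9 were tested, with 3 fitted higher, and 1 passed the threshold. Ucp2, an uncoupling protein homolog, had 27.4, 44.1, 56.3, 37.5 and 50.9 normalized CPM in WT mice 1 to 5, against 19.3, 25.9, 16.1, 24.6 and 27.8 in the Thrb hep-/- mice. Its mean fell from 43.2 ± 11.3 to 22.7 ± 4.87 (SD, n = 5 each), with WT mouse 1 within the Thrb hep-/- range and a log2 fold change of -0.93 (SE 0.20, adjusted p = 0.049). Ucp2 is known from Kupffer cells in liver, and the Kupffer cell markers moved the same way (median log2 fold change -0.75); their part in this value was not tested. Without the libraries with adipocyte markers Ucp2 stood at -1.04 (adjusted p = 0.26 with edgeR).

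Promoters of OXPHOS genes are known for sites of the nuclear respiratory factors NRF1 and GABPA and of YY1 and the ERR receptors. RefSeq promoters on GRCm38.p6, from 250 bases before to 50 after the start, were found for 65 of the 80 tested nuclear-encoded members and searched on both strands. The NRF1 letters GCGCANGCG were in 30.8% of the members, 15.3% of tested genes and 7.03% of all promoters. The GABPA letters CCGGAAG were in 26.2%, 20.5% and 9.93%, the YY1 letters AAGATGGCG in 10.8%, 3.72% and 1.64%, and the ERR letters AAGGTCA in 12.3%, 4.27% and 5.38%. The half-site AGGTCA of thyroid hormone receptors, which is contained in the ERR letters, was in 23.1%, 15.5% and 18.1%. The direct repeat of that half-site known as DR4 was in 0 of the 65 and in 0.0148% of all promoters. These matches are letters in a window and were not tested against binding.

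The promoters of Ndufs7, the member past the threshold, and of Cox6a1 and Sdha, which were among the 8 lowest unadjusted p and held NRF1 letters, are printed as the 250 bases before the start, 5′ to 3′ on the strand of the gene. They were chosen after the values were seen. Ndufa5, also among these 8, held NRF1 letters and the half-site AGGTCA and is not printed. Ndufa4 and Cox7a2 held no letters of those searched. Capitals mark NRF1 letters in Sdha and NRF1 and GABPA letters in Cox6a1. Ndufs7 had neither, but its searched promoter held YY1 letters that are not within the printed bases.
Ndufs7 (chr10:80249199-80249448, plus strand): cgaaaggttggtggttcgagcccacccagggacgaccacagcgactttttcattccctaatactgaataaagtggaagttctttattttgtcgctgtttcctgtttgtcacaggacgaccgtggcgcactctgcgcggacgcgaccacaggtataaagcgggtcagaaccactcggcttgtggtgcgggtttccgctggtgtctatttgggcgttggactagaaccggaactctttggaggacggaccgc
Cox6a1 (chr5:115348959-115349208, minus strand): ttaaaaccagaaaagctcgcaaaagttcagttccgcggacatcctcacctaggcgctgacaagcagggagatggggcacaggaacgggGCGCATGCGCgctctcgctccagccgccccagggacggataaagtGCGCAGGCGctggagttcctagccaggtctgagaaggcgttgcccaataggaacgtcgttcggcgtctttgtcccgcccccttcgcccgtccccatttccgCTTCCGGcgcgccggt
Sdha (chr13:74350241-74350490, minus strand): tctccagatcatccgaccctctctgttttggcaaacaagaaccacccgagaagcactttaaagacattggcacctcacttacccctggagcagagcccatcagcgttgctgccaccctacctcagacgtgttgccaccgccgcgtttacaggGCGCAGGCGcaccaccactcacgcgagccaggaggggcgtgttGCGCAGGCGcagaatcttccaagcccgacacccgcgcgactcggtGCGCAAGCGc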

How the data were processed

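The authors mapped the reads of stranded mRNA libraries on mm10 with HISAT2 2.2.1 and counted them on Ensembl genes with HTSeq 0.9.1, in union mode, without strand, and without reads of low quality, of several positions or of several genes. The deposited values used here are these raw counts. A deposited table of the authors' edgeR comparison (log2 fold changes, p-values and F scores) was not used. The test was that of edgeR 4.0.16 under R 4.3.3 (TMM, robust quasi-likelihood test over all 10 libraries, Benjamini-Hochberg over 12234 genes, threshold 0.15 as in the study's methods), which was checked on simulated data. The SE follows from the fold change and its F statistic. Nothing states that mice with the same replicate number belong together, and p-values set the fitted change against the spread between these mice. Symbols, exons and lengths came from GENCODE M21 on GRCm38, through which 111 members were found; 6 more matched by RefSeq symbol only, and 260 identifiers had no symbol. Of the members, 21 did not pass the filter: 9 protein coding and 12 others. Lists and members were chosen with earlier results of these data known. Named genes were members past the threshold, all mitochondrially encoded members, the 4 highest and 4 lowest fold changes of the rest, the most and least abundant per length of each complex, alternative isoforms, and set regulators and listed genes past the threshold; others were named for their role after values were seen, and 1 gene is not reported here. Alternatives were DESeq2 1.42.0, limma-voom 3.58.1, other scalings and filters, no robust settings, a replicate block, a length offset, leaving out each mouse and, chosen after seeing the data, leaving out the libraries whose adipocyte markers summed to over 1 normalized CPM.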

Additional observations from a re-analysis of the deposited data

Results flagged for a closer look

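In 94 groups of 5 mice checked, 8 held a mouse far from the other 4 by Dixon's ratio, where chance gives about 4.7. For Atp5s, Thrb hep-/- mouse 2 had 6.04 normalized CPM, against 3.14 to 3.75 in the other Thrb hep-/- mice. For mt-Nd6, Thrb hep-/- mouse 4 had 781, against 960.5 to 1033, and for Ndufa4l2 it had 1.03, against 1.84 to 2.15. WT mouse 4 had 268 of Ndufa4, against 209 to 224 in the other WT mice, and 2.27 of Ndufb2, against 2.80 to 2.97. For Esrra, Thrb hep-/- mouse 1 had 29.1, against 41.4 to 45.0. WT mouse 5 had 396 of Prodh, against 175 to 225. In total counts, Thrb hep-/- mouse 2 had the lowest value of its group, 27779196 counts, against 28441288 to 28590704.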

How the results depend on the processing

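The count of members past the threshold, 1 of 96, was 5 with DESeq2, 0 with upper-quartile factors, 0 at an adjusted p under 0.05 and 0 without the libraries with adipocyte markers; it ranged from 0 to 5 with each mouse left out, with 5 without Thrb hep-/- mouse 1 and 3 without WT mouse 4. Without a filter the 1 call was mt-Co2 and with the length offset Ndufb9, in place of Ndufs7. With the replicate number as a block (replicate block) the count was 0, with 348 genes in all past the threshold in place of 499, and Cox19 was at 0.43 (adjusted p = 0.18). Over all genes the count was 885 with DESeq2, 684 without Thrb hep-/- mouse 1 and 542 without WT mouse 4. It was 185 without the libraries with adipocyte markers, 256 and 284 without WT mouse 2 or 5 and 229 without Thrb hep-/- mouse 3. Mice with the same number did not deviate together over all genes (correlations -0.20 to 0.0091). Mice with different numbers were not compared, so this cannot settle whether the numbers mark pairs. The median of the nuclear-encoded members stayed between 0.13 and 0.15 under the planned settings with all mice and ran from 0.088 to 0.19 with mice left out, and that of the mitochondrially encoded members between 0.11 and 0.17 and from 0.11 to 0.20. The difference in mitochondrial share was 0.369 to 0.694 percentage points with mice left out. Of 882 values of 42 named genes, 819 kept direction and side of the threshold and 30 turned direction. With mice left out, log2 fold changes ran from -0.079 to 0.30 for mt-Nd3, -0.10 to 0.048 for mt-Nd5, -0.067 to 0.084 for mt-Nd6, -0.34 to 0.018 for mt-Co3, -0.025 to 0.092 for Ndufb2, -0.26 to 0.0061 for Ppargc1a, -0.022 to 0.13 for Esrra, -0.038 to 0.092 for Nrf1 and -0.0094 to 0.084 for Gabpa. The length offset turned mt-Nd6 to -0.027. Without the libraries with adipocyte markers, mt-Nd5 turned to 0.036, Atp5s to 0.068, Cox7a2l to 0.041, Ppargc1a to 0.083 and Nrf1 to -0.071. The causes were not tested. With 5 mice per group the median SE of a single member was 0.11.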

Other observations

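The mitochondrial ribosomal RNAs, which are not members, were counted in these mRNA libraries at 455, 430.2, 412, 554 and 329.6 normalized CPM of mt-Rnr2 in WT mice 1 to 5, against 442, 821, 568, 673 and 439 in the Thrb hep-/- mice, with a log2 fold change of 0.43 (SE 0.19, adjusted p = 0.33) from edgeR. For mt-Rnr1 the values were 422, 339.6, 453, 511 and 351 and 425, 675, 485, 633 and 340.2, with a log2 fold change of 0.30 (SE 0.18, adjusted p = 0.52). Thrb hep-/- mice 2 and 4 were the highest in both. Neither stood highest in the median over the 12 tested mitochondrially encoded protein genes, though mouse 2 was the highest in mt-Nd3. Of the chromosome 1 copies not named above, Gm29216, the copy of part of mt-Co1, gave a log2 fold change of 0.41 (SE 0.13, adjusted p = 0.18).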
